A study of Arabidopsis thaliana with 12 samples.

Results

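Progressive drought carried to the first day of wilting was compared with its own well-watered control in young leaves of Arabidopsis thaliana. The comparison takes 4 of the 12 Affymetrix ATH1 arrays of the study, chosen by their labels: 2 arrays of progressive drought and 2 of the control that belongs to it. It was read over 21461 probe sets, each named by its locus, after the array's own control probe sets were left out. All plants were of the ecotype Columbia, with no transgene or mutation named, and grew in peat pellets at 22 °C with 10 h of light a day. Drought plants received no water from 35 days after sowing and dried until they wilted; their controls stayed well watered. The labels and files used here do not give the age at wilting or the hour of sampling. The other 8 arrays hold a moderate drought, begun 30 days after sowing and sampled on day 1 and day 10, each with its own control. Every array carried RNA pooled from 5 plants, and the labels call the pools biological replicates, so n = 2 per group throughout.

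When soil water runs out, leaf cells accumulate abscisic acid (ABA), a hormone that closes stomata and switches on protective genes. ABA binds receptors of the PYR/PYL family, which then hold back the clade A PP2C phosphatases and so free SnRK2 kinases to activate transcription factors. Drying tissue fills with hydrophilic late embryogenesis abundant (LEA) proteins and protective sugars, while growth of the cell wall, cell division and photosynthesis are known to slow.

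Values are log2 expression, where a step of 1 is a doubling, and array values are given as replicate 1 and then replicate 2 of a group. Differences are drought minus control with their standard error (SE) after the ± sign. A probe set was said to rise or fall when its adjusted p was under 0.05 in limma, which fits a linear model to every probe set and steadies each variance with those of all the others. Adjustment was by the Benjamini-Hochberg method over all 21461 probe sets. No detection calls were used, so whether dim levels lie above background was not tested, and the size of a change is approximate where the lower group lies under 4.21, the level that 40% of probe sets do not exceed. The leaf samples are bulk tissue, in which fewer cells of a type and less RNA per cell cannot be told apart.

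The arrays of each group were not alike in every respect. Replicates correlated at 0.974 in the control and 0.964 in the drought group, and medians of the 4 arrays lay between 4.65 and 4.70. Genes of the circadian clock differed strongly between arrays of the same group. CCA1, a clock gene that peaks near dawn, was at 4.05 and 7.42 on the control arrays and at 9.54 and 6.64 on the drought arrays. TOC1, a clock gene that peaks near dusk, was at 8.45 and 6.21 in the control and at 5.93 and 8.80 in drought. Control replicate 1 thus had the low CCA1 and high TOC1 level, drought replicate 1 had the reverse, and the groups overlapped for both genes. ELF4, an evening gene, was at 6.70 and 3.74 in the control and at 3.83 and 6.78 in drought. Of 11 clock genes measured, 6 were higher on both control replicate 1 and drought replicate 2 than on the other pair, and 4 were lower on both. The exception was PRR7, at 8.60 and 8.60 in the control and at 8.43 and 8.62 in drought.

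Jasmonate genes, which respond to wounding and to touch, split the same way. JAZ7, a repressor of the pathway, was at 9.58 and 3.35 in the control and at 6.05 and 9.02 in drought. MYC2, its central transcription factor, was at 9.42 and 5.21 in the control and at 7.53 and 10.08 in drought. Both genes were high on control replicate 1 and drought replicate 2 and lower on the other arrays, so the groups overlapped. Of 22 jasmonate genes, 18 were higher on both of those arrays than on both of the others, and so were 8 of 17 genes of glucosinolate synthesis. These counts, like those of the clock genes, take a gap of any size. The share of all probe sets with such a gap of any size was not counted, so the stricter count below is no background for them. Over all probe sets, 158 had a gap of at least 1 log2 unit between these crossed pairs of arrays, against 2 between the pairs that share a replicate number and 1584 between drought and control. Of the 158, 123 were higher on control replicate 1 and drought replicate 2. What sets the arrays apart was not tested. The named clock and jasmonate genes, other than PRR7, were picked after their values had been seen.

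**Figure D1:**
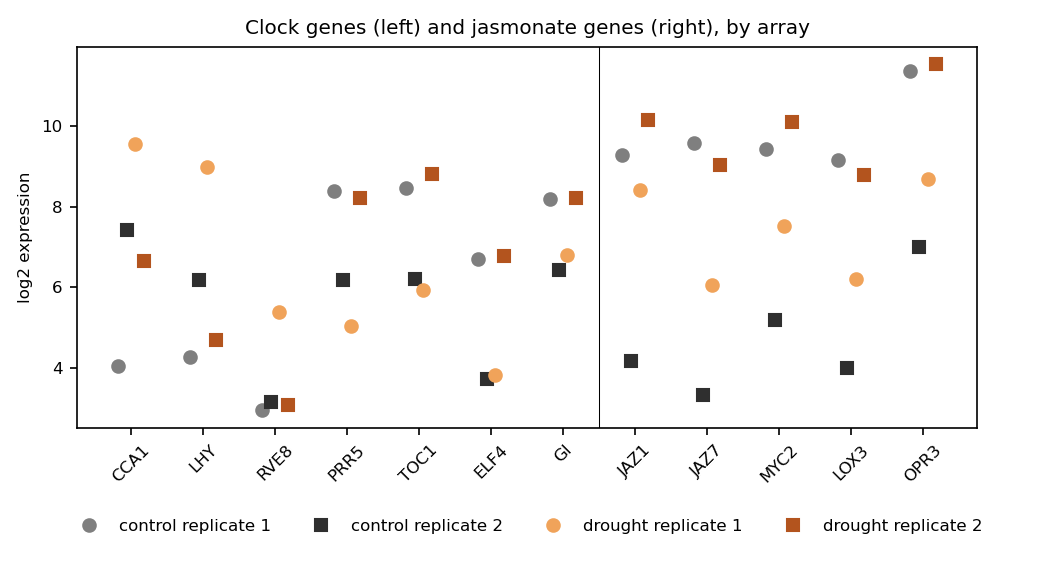
Log2 expression (y axis) of 7 clock genes and 5 jasmonate genes (x axis) on each of the 4 arrays, with 1 point per array. For most genes shown, control replicate 1 lies beside drought replicate 2 and not beside control replicate 2, as for TOC1 at 8.45 and 8.80 against 6.21.

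Against this spread, 589 probe sets rose, 2.74% of those tested, and 986 fell, which is 4.59%. Of these, 464 rises and 822 falls were of at least 1 log2 unit, and the smallest adjusted p in limma was 0.0164. The median difference over all probe sets was 0.0038. Of the 21461 probe sets, 10889 lay above 0, 10572 lay below 0, and 5430 had an unadjusted p under 0.05. Counts of list members by these measures are to be read beside those numbers. The number of calls changed when 1 array was left out. Limma called 0 probe sets without control replicate 1 (3877 at an unadjusted p under 0.05), 0 without control replicate 2 (3462) and 0 without drought replicate 1 (4794), and 334 rises with 216 falls without drought replicate 2. With 2 arrays in each group an exact permutation test of 1 gene cannot give a p below 0.333, so none was used. When every array was centred on 7 reference genes, the median of all probe sets shifted to 0.22, and limma called 1032 rises and 659 falls. Of these 7 genes, 5 were themselves higher on both control replicate 2 and drought replicate 1 than on the other arrays. Centring on them thus shifts every probe set along the crossed split of arrays. In the centred fit the smallest adjusted p in limma was 1.4e-84, and no call was of under 1 log2 unit. Its calls thus followed the size of a change more than the replicate spread of each probe set. Its balance of directions cannot be ascribed to scaling alone, and calls gained or lost only there are not relied on. A fit that took the spread from all 12 arrays called 2692 rises and 3105 falls. The root mean square standard deviation of replicates was 0.31 in the progressive control and 0.37 in progressive drought. For control and drought it was 0.12 and 0.15 on day 1, and 0.15 and 0.21 on day 10. A shared spread thus tends to understate the error here, so calls made only in that fit are not relied on.

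**Figure D2:**
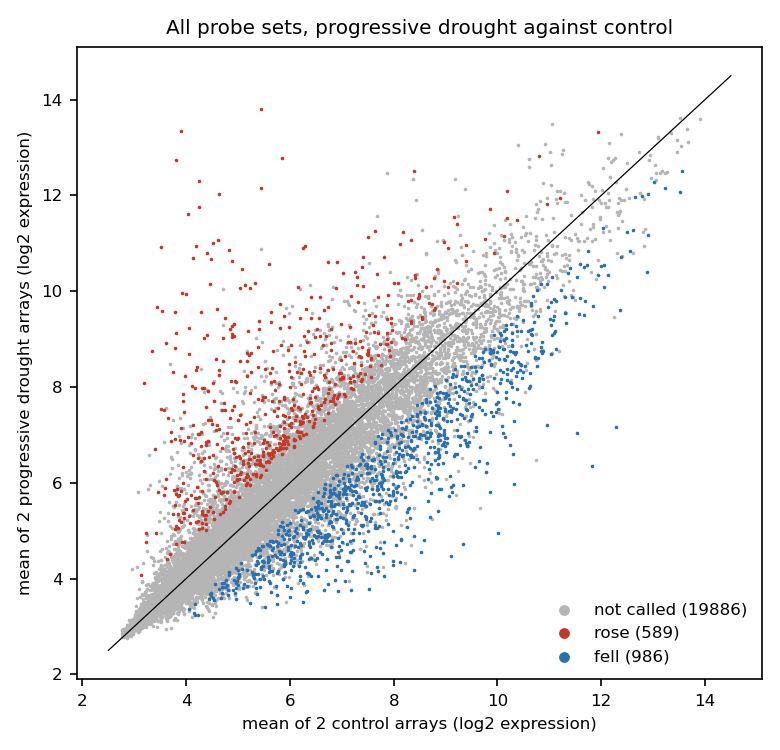
Mean log2 expression on the 2 control arrays (x axis) and the 2 progressive drought arrays (y axis) for all 21461 probe sets, 1 point each, with the line of equal level. The 589 rises lie above the line and the 986 falls below it, and several rises run from the dim left edge to the top of the scale.

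The highest rises joined protective proteins of drying tissue with brakes on ABA signalling. LEA7, a LEA protein, was at 3.89 and 3.91 on the control arrays and at 13.88 and 12.81 on the drought arrays, a rise of 9.45 ± 0.40 (limma adjusted p = 0.0174). RAB18, a dehydrin induced by ABA, was at 5.47 and 5.39 in the control and at 14.02 and 13.59 in drought. Its rise of 8.37 ± 0.19, or 331-fold, had an adjusted p of 0.0164 in limma, and RAB18 gave the highest value of any gene on drought replicate 1. LTP4, a lipid transfer protein of the leaf surface, went from 4.51 and 4.00 to 12.29 and 12.33, a rise of 8.05 ± 0.21. The 2 drought arrays agreed closely for LTP4 and all 4 drought values of RAB18 and LTP4 lay far above the control values. The other genes among the 15 largest rises included LEA4-5 (7.52 ± 0.25), TSPO (6.74 ± 0.60), a membrane protein induced by ABA, and DAA1 (6.04 ± 0.16), an ATPase. HIPP22 (5.95 ± 0.19), a metal-binding protein, and PUB19 (5.69 ± 0.36), a ubiquitin ligase, belonged to them too. The control group lay under 4.21 for LEA7, TSPO, HAI2, DAA1 and HIPP22.

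Among the 15 largest falls, enzymes and proteins of the cell wall stood beside a copper enzyme. CSD2, the chloroplast copper/zinc superoxide dismutase, was at 11.40 and 12.25 in the control and at 6.55 and 6.15 in drought, a difference of −5.47 ± 0.36 (limma adjusted p = 0.0200). GER1, a germin-like protein of the wall, was at 12.16 and 12.41 in the control and at 7.78 and 6.56 in drought, with a difference of −5.12 ± 0.46. XTH6, an enzyme that cuts and rejoins the xyloglucan of growing walls, was at 8.71 and 9.51 in the control and at 4.94 and 3.99 in drought, a difference of −4.64 ± 0.47. In all 3 genes the drought arrays lay more than 3 log2 units below both control arrays. GER3 (−4.34 ± 0.50), AGP21 (−3.74 ± 0.27), an arabinogalactan peptide, and PME3 (−3.57 ± 0.53), a pectin methylesterase, fell as well. CRK21 (−3.75 ± 0.34) and CRK4 (−3.56 ± 0.29), receptor kinases with cysteine-rich outer domains, completed the falls together with genes described with their groups below. The drought group lay under 4.21 for HBI1, CRK21 and CRK4.

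**Figure D3:**
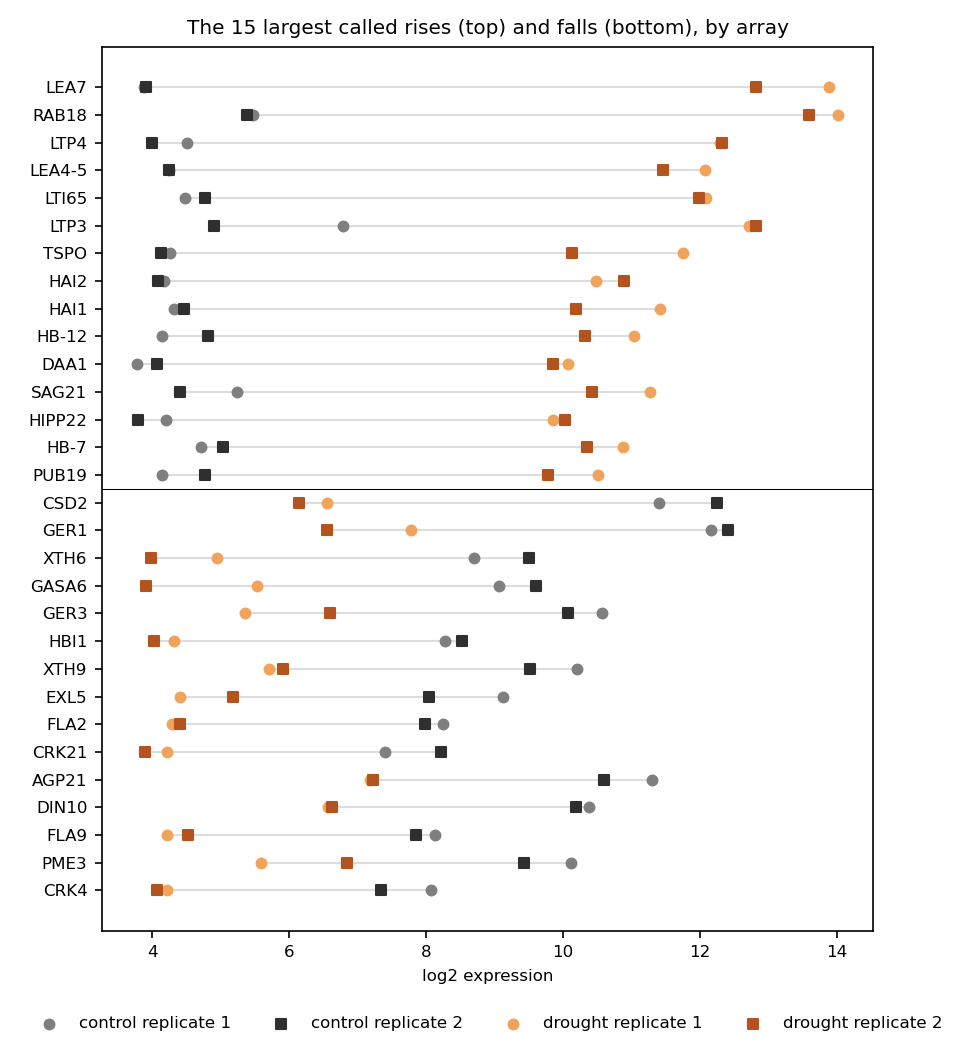
Log2 expression (x axis) of the 30 most changed named genes, 15 that rose and 15 that fell (y axis), with 1 point per array. Control and drought points stand apart in all 30 genes, and for LTP3 the control arrays themselves lie at 6.79 and 4.90.

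Of 12 measured genes long used as sentinels of drought and ABA, 5 rose and 0 fell, with a median difference of 2.74. LTI65 (RD29B) was at 4.48 and 4.78 in the control and at 12.09 and 11.99 in drought, a rise of 7.41 ± 0.15 (limma adjusted p = 0.0164). RD22, ERD1 and NCED3 also rose, by 2.03 ± 0.14, 2.82 ± 0.20 and 3.81 ± 0.30. The groups lay apart in all 5, and within each group the arrays differed by under 0.6 log2 units. LTI78 (RD29A) was at 11.71 and 9.07 in the control and at 12.76 and 13.34 in drought, a difference of 2.66 ± 0.99 that missed the threshold (limma adjusted p = 0.218). RD26, a NAC factor, was at 9.94 and 6.80 in the control and at 12.25 and 12.42 in drought (3.97 ± 1.15, limma adjusted p = 0.142). COR15A, which protects chloroplast membranes in the cold, was at 12.42 and 10.12 in the control and at 12.94 and 12.94 in drought (1.67 ± 0.84). In these 3 genes control replicate 1 stood high, although still below both drought arrays. The same was so for ERD10 (2.44 ± 0.83), COR47 (2.17 ± 0.64) and RD20 (3.90 ± 0.74), and 6 of the 12 sentinels were at least 1 log2 unit higher on control replicate 1 than on control replicate 2. ERD5, which breaks down proline, was at 6.41 and 7.38 in the control and at 5.43 and 4.51 in drought, a difference of −1.93 ± 0.50 that was not called.

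Some genes that make ABA and some that break it down rose. Of 12 synthesis genes 3 rose and 0 fell, with a median of 0.38. NCED3, the rate-limiting cleavage enzyme, was at 4.46 and 3.90 in the control and at 8.25 and 7.72 in drought (limma adjusted p = 0.0221). AAO3, the aldehyde oxidase of the last step, rose by 2.76 ± 0.25, and ABA3, which makes its molybdenum cofactor, rose by 0.91 ± 0.13. The other NCED genes did not pass: NCED4 was at 0.48 ± 0.33, and NCED2, NCED5, NCED6 and NCED9 lay between −0.06 and 0.29 at dim levels. ABA1, another synthesis gene, stood at 0.81 ± 0.45 and was not called. On the breakdown side, 2 of 7 genes rose and 0 fell, with a median of 1.24. They were the ABA hydroxylases CYP707A1 (1.65 ± 0.24) and CYP707A2 (1.42 ± 0.11), while CYP707A3 (1.24 ± 0.28) and the exporter gene ABCG25 (1.44 ± 0.40) were not called.

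Receptors and phosphatases, which act against each other in ABA signalling, were called in opposite directions. Of 10 PYR/PYL receptor genes 2 fell and 0 rose, with a median of −0.33 that was −0.18 without control replicate 2, −0.20 without drought replicate 2 and −0.70 without drought replicate 1. PYL4 was at 6.19 and 6.62 in the control and lower on both drought arrays, with a difference of −2.35 ± 0.21 (limma adjusted p = 0.0256). PYL8 fell by 1.34 ± 0.11 on the log2 scale, whereas PYR1 (−0.46 ± 0.43) and PYL7 (0.72 ± 0.36) were not called. Of 9 clade A PP2C genes, 6 rose and 0 fell, with a median of 3.15. HAI2 was at 4.17 and 4.08 in the control and at 10.48 and 10.90 in drought, a rise of 6.56 ± 0.18 (limma adjusted p = 0.0164), and HAI1 rose by 6.41 ± 0.46. ABI2 (4.23 ± 0.22), ABI1 (3.15 ± 0.16), PP2CA (2.73 ± 0.21) and HAB2 (2.13 ± 0.27) rose less far. HAB1 stood at 3.75 ± 0.69 with an adjusted p of 0.0655 in limma, from 5.84 and 6.92 in the control and 10.90 and 9.37 in drought. HAI3 was at 6.53 on drought replicate 1 and at 4.00 on drought replicate 2. Among 10 SnRK2 kinase genes limma called 0, with 5 that had an unadjusted p under 0.05, with a median of 0.33 and 6 called in the fit of 12 arrays. OST1, the kinase that acts in guard cells, was at 0.89 ± 0.26.

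Some transcription factor genes of the drought response rose in each of the 4 families examined. Of 8 bZIP and other ABA factors 2 rose and 0 fell, with a median of 0.42. They were GBF3 (3.83 ± 0.28), a G-box binding factor, and ABF3 (3.43 ± 0.13), which binds ABA-responsive elements. ABF4 was at 5.14 and 5.48 in the control and at 8.44 and 6.94 in drought and was not called (limma adjusted p = 0.0998). Of 5 class I HD-Zip genes 3 rose and 0 fell. HB-12 was at 4.15 and 4.82 in the control and at 11.04 and 10.32 in drought, and HB-7 at 4.71 and 5.04 against 10.88 and 10.36. These rises of 6.19 ± 0.37 and 5.74 ± 0.25 were far above that of HB6 (0.94 ± 0.13), and HB5 was at −1.30 ± 0.58 without a call. Of 9 NAC genes 3 rose and 0 fell, with a median of 3.66: NAC032 (4.64 ± 0.27), NAC6 (4.02 ± 0.15), also known as the senescence regulator ORE1, and ATAF1 (3.45 ± 0.47). Another senescence factor, NAP, stood at 3.71 ± 0.74 with an adjusted p of 0.0748 in limma. Of 9 DREB and zinc finger genes 3 rose and 0 fell, with a median of 2.31 that was 0.97 without drought replicate 2. DREB2A, which drives dehydration genes, rose by 4.14 ± 0.56, and the zinc finger genes ZAT6 and AZF2 by 3.14 ± 0.29 and 2.79 ± 0.34. DREB1A, known from the cold response, was at 5.64 on drought replicate 1 and at 8.33 on drought replicate 2 and was not called.

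The largest rise of any probe set was in the group of protective proteins. Of 19 LEA and dehydrin genes 6 rose and 0 fell, 18 lay above 0, and the median was 2.44. Beside LEA7 and RAB18 these were LEA4-5, SAG21 (6.03 ± 0.44), which is also a senescence-associated gene, DI21 (4.65 ± 0.13) and the dehydrin ERD14 (1.90 ± 0.24). SAG21 was at 5.24 and 4.40 in the control and at 11.28 and 10.43 in drought, so the groups lay apart by more than 5 log2 units. LTI30, a dehydrin, was at 8.91 and 6.81 in the control and at 12.93 and 12.02 in drought, and its difference of 4.61 ± 0.84 was not called (limma adjusted p = 0.0644). Seed-type members were low in the control: EM1 was at 3.07 and 3.07 there and at 6.69 and 4.92 in drought without a call, and EM6 did not leave the dim range, between 3.68 and 3.94. The fit of 12 arrays called 15 of the 19 as rises, and so did centring on reference genes. Calls made only in these fits are not relied on, for the reasons given above.

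Genes of lipid transfer and wax gave 3 rises and 1 fall among 17 members, with a median of 1.00. LTP3 was at 6.79 and 4.90 in the control and at 12.73 and 12.82 in drought, a rise of 6.93 ± 0.70 (limma adjusted p = 0.0272), and LTP2 rose by 3.36 ± 0.45. LTP6, of the same family, went the other way, from 8.08 and 8.44 to 5.79 and 5.00, a difference of −2.86 ± 0.33. LTP1 was near the top of the scale in both groups (0.94 ± 0.24, not called). LTP3 and LTP4 are close relatives, and how far their probes share signal was not tested. The wax enzyme genes CUT1 (1.67 ± 0.28, adjusted p = 0.0563 in limma) and CER1 (0.94 ± 0.58) were not called.

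Of 18 genes of raffinose, starch and sucrose metabolism 4 rose and 3 fell, with a median of 0.97. SUS3, a sucrose synthase, was at 3.60 and 3.89 in the control and at 9.10 and 7.52 in drought, a rise of 4.57 ± 0.59 (limma adjusted p = 0.0373). BAM1, a beta-amylase that degrades starch under stress, rose by 3.31 ± 0.47 and SIP1, a raffinose synthase, by 1.84 ± 0.19. SUS1, another sucrose synthase, rose from 7.62 and 6.96 to 10.12 and 10.46. DIN10, a raffinose synthase-like gene switched on by darkness, fell by 3.70 ± 0.12 on the log2 scale, from 10.39 and 10.19 to 6.56 and 6.62. APL1 (−1.46 ± 0.16) and ADG1 (−1.01 ± 0.12), the subunits of ADP-glucose pyrophosphorylase in starch synthesis, fell with it, and APL3, another large subunit, stood at 2.41 ± 0.45 without a call. GolS2, which starts raffinose synthesis, was at 3.85 ± 0.71 (adjusted p = 0.0655 in limma). Limma called 0 of 5 proline genes, 3 of which had an unadjusted p under 0.05; ALDH12A1 was at 0.97 ± 0.16, P5CR at 0.11 ± 0.10, and the fit of 12 arrays called 1 rise and 2 falls.

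HIS1-3, a linker histone induced by water deficit, was at 5.19 and 5.10 in the control and at 10.12 and 10.16 in drought, a rise of 5.00 ± 0.10 (limma adjusted p = 0.0164). Its replicates differed by under 0.1 log2 units in both groups. Of 16 heat shock genes 2 rose and 0 fell, with a median of 0.74, and both encode transcription factors. The median was 0.34 without drought replicate 1, 1.31 without drought replicate 2 and 1.93 with dim probe sets left out. HSFA6A was at 3.26 and 3.43 in the control and at 9.56 and 7.95 in drought, a rise of 5.42 ± 0.60, and HSFC1 rose by 3.62 ± 0.49. The chaperone gene HSP70 was at 4.16 and 5.25 in the control and at 11.23 and 8.88 in drought and missed the threshold (limma adjusted p = 0.0626). HSP17.4 and HSP90.1 were at 8.09 and 7.82 on drought replicate 1 but at 4.63 and 5.03 on drought replicate 2, close to their control levels.

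Part of the genes of wall growth fell. Of 16 genes for cellulose and arabinogalactan proteins of the primary wall 6 fell and 0 rose, all 16 lay below 0, and the median was −1.01. FLA2, a fasciclin-like arabinogalactan protein, was at 8.26 and 7.99 in the control and at 4.29 and 4.41 in drought, a difference of −3.77 ± 0.15 (limma adjusted p = 0.0174). FLA9 (−3.62 ± 0.18), FLA13 (−3.34 ± 0.15), FLA7 (−2.27 ± 0.30) and FLA8 (−2.21 ± 0.25) fell likewise. Among the cellulose synthase genes CESA5 fell, by 1.08 ± 0.11 on the log2 scale, and CESA3 (−0.42 ± 0.14) and CESA1 (−0.51 ± 0.22) were not called. Of 23 XTH genes 6 fell and 1 rose, with a median of −0.40 that was −1.80 over the 14 members left by the filter on dim probe sets. XTH9 was at 10.20 and 9.52 in the control and at 5.71 and 5.92 in drought, a difference of −4.05 ± 0.28, and XTH4 (−3.45 ± 0.18) and XTH31 (−3.43 ± 0.47) were close to it. The rise was that of XTH28 (0.74 ± 0.11, limma adjusted p = 0.0489), and this call was kept only in the fits that took the spread from all 12 arrays and lost under every other alternative run. TCH4, a touch-induced XTH, was at 10.83 and 8.74 in the control and at 11.08 and 10.52 in drought. Limma called 0 of 15 expansin genes, which loosen walls. Of the 15, 13 lay below 0, as did 10572 of all 21461 probe sets, and the median was −0.98. An unadjusted p under 0.05 was found for 4 of the 15 and for 5430 of all probe sets. EXPA6 was at 7.62 and 8.67 in the control and at 5.54 and 4.70 in drought (−3.02 ± 0.50, adjusted p = 0.0546 in limma), and the fit of 12 arrays called 7 expansins as falls.

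Growth hormone genes fell in part. Of 17 genes of gibberellin and brassinosteroid growth 3 fell and 0 rose, with a median of −0.77. HBI1, a growth-promoting bHLH factor, was at 8.28 and 8.52 in the control and at 4.32 and 4.04 in drought, a difference of −4.22 ± 0.17 (limma adjusted p = 0.0174). GASA6, induced by gibberellin, fell by 4.61 ± 0.63, and EXL5, of the EXORDIUM family, fell by 3.78 ± 0.50, both on the log2 scale. EXO itself was at 9.28 and 7.17 in the control and at 4.21 and 4.44 in drought, and its difference of −3.90 ± 0.78 was not called (limma adjusted p = 0.0755). Among 14 auxin genes limma called 0, 4 of them at an unadjusted p under 0.05, with a median of −0.40 and with AUX1, an auxin importer, at −1.67 ± 0.39. The fit of 12 arrays called 1 rise and 4 falls among them. Aquaporins, the water channels, had 12 of 15 members below 0 and a median of −0.77, but limma called 0, with 5 at an unadjusted p under 0.05 and 1 rise and 7 falls in the fit of 12 arrays. Their median was −1.17 without control replicate 1, −0.36 without control replicate 2, −1.96 without drought replicate 1 and −0.25 without drought replicate 2. TIP2, a tonoplast channel, was at 12.13 and 12.35 in the control and at 10.15 and 8.79 in drought. PIP2A, a channel of the plasma membrane, was at 11.61 and 12.19 in the control and at 11.65 and 8.86 in drought, so its low value was that of drought replicate 2.

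Some genes of cell division and of the ribosome fell. Of 24 cell cycle and DNA replication genes 3 fell and 0 rose, 21 lay below 0, and the median was −0.64. PCNA1, the sliding clamp of DNA replication, was at 7.03 and 7.20 in the control and at 5.14 and 5.11 in drought, a difference of −1.99 ± 0.12 (limma adjusted p = 0.0189). MCM7 (−2.09 ± 0.27) and MCM4 (−1.15 ± 0.14), parts of the replicative helicase, fell with it. KN, the syntaxin of the division plate, stood at −2.06 ± 0.34 (adjusted p = 0.0546 in limma), and CDC2, the main cyclin-dependent kinase, at 0.05 ± 0.10. Of 14 cytosolic ribosomal protein genes 6 fell and 0 rose, 14 lay below 0, and the median was −0.77. RPS6A was at 9.22 and 9.56 in the control and at 7.86 and 7.59 in drought, a difference of −1.66 ± 0.18, while its paralog RPS6B stayed at 9.82 and 9.83 against 9.80 and 9.58. RPL5B (−1.42 ± 0.21), RPL23AA (−1.39 ± 0.13), RPL23AB (−1.20 ± 0.14), RPL18 (−1.09 ± 0.12) and SAC52 (−0.75 ± 0.10) were the others that fell. Paralogs are alike in sequence, and cross-hybridisation between them was not tested. Centred on reference genes, 1 ribosomal protein gene fell and the median was −0.56.

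Genes of the photosynthetic apparatus lay below their control levels throughout, and part of them fell. Of 36 nuclear genes for light harvesting and the photosystems 14 fell and 0 rose, all 36 lay below 0, and the median was −0.84. PETE1, a plastocyanin, was at 10.87 and 10.81 in the control and at 8.96 and 8.73 in drought, with no overlap (limma adjusted p = 0.0200). PSBQA (−1.89 ± 0.16), of the oxygen-evolving complex, PSAN (−1.72 ± 0.20), of photosystem I, and NPQ4 (−1.47 ± 0.17), which dissipates excess light as heat, fell as well, as did DRT112 (−1.44 ± 0.10), the other plastocyanin. The antenna gene LHCA3, the brightest gene on both control arrays, was at 13.94 and 13.88 there and at 13.52 and 13.67 in drought and was not called. Levels this high lie near the top of the scale, where an array can compress differences. Whether it did so here was not tested. With cyclic loess 7 members fell and the median was −0.46, with centring on reference genes 6 fell and the median was −0.62, and without drought replicate 2 1 fell and the median was −0.89. Of 18 genes of the Calvin cycle and photorespiration 4 fell and 0 rose, with 18 below 0 and a median of −0.87. GAPA-2 (−1.97 ± 0.24) and GAPB (−1.67 ± 0.19), subunits of the chloroplast glyceraldehyde phosphate dehydrogenase, fell together with HCEF1 (−1.76 ± 0.21), the chloroplast fructose bisphosphatase, and TKL1 (−1.18 ± 0.10), a transketolase. RCA, which activates Rubisco, was at −0.67 ± 0.28 without a call.

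Of 16 chlorophyll synthesis genes 8 fell and 0 rose, with 16 below 0 and a median of −1.25. CHLI2, a subunit of magnesium chelatase, was at 7.91 and 8.16 in the control and at 4.64 and 4.75 in drought, a difference of −3.34 ± 0.14 (limma adjusted p = 0.0174). Its paralog CHLI1 (−2.42 ± 0.22), the next enzyme CHLM (−2.09 ± 0.22) and the protochlorophyllide reductase PORC (−1.64 ± 0.15) fell as well. The factors GLK1 (−0.11 ± 0.39) and GLK2 (−0.12 ± 0.76), which drive such genes, were not called. Of 19 genes of chlorophyll breakdown and senescence 3 rose and 0 fell, with a median of 0.44 that was 0.08 without drought replicate 1 and 0.82 without drought replicate 2. ACD1, which opens the ring of the chlorophyll breakdown product pheophorbide, was at 8.07 and 8.19 in the control and at 11.24 and 10.72 in drought, a rise of 2.85 ± 0.22 (limma adjusted p = 0.0218). SAG29, a sugar exporter, rose by 4.68 ± 0.59, and the third was NAC6. SAG12, the classical marker of late senescence, stayed between 3.19 and 3.45 on all arrays, and NYE1 (2.68 ± 0.54) was not called. Centred on reference genes 7 of these genes rose and 5 chlorophyll synthesis genes fell.

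Of 23 genes for copper proteins and antioxidant enzymes 3 fell and 1 rose, with a median of 0.07. CCS, the chaperone that loads copper into superoxide dismutase, was at 7.75 and 8.80 in the control and at 5.49 and 5.42 in drought, a difference of −2.82 ± 0.40 (limma adjusted p = 0.0420). CSD1, the cytosolic copper/zinc enzyme, fell by 2.61 ± 0.40 on the log2 scale, and with CSD2 these were the 3 falls. CCH, another copper chaperone, rose, from 9.25 and 9.18 to 11.58 and 11.24 (limma adjusted p = 0.0200). The iron enzyme FSD1 was at 0.56 ± 0.52 and the manganese enzyme MSD1 at 0.04 ± 0.22, neither of them called. The copper transporter genes COPT1 and COPT2 stood at −0.27 ± 0.18 and 0.07 ± 0.11. FER1, an iron store, was at 3.16 ± 0.55 with an adjusted p of 0.0600 in limma.

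Of 17 nitrogen genes 2 fell and 0 rose, with a median of −1.11, and both encode nitrate reductase. NIA1 was at 7.32 and 8.25 in the control and at 4.43 and 4.63 in drought, a difference of −3.26 ± 0.36 (limma adjusted p = 0.0299), and NIA2 fell by 2.49 ± 0.22. GS2, the chloroplast glutamine synthetase, was at −1.29 ± 0.35 and GLU1, its partner glutamate synthase, at −1.51 ± 0.35, without a call. Without drought replicate 2, 3 nitrogen genes fell, and centred on reference genes 4 fell and 2 rose.

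Other defence and hormone genes gave few calls. Of 10 salicylate and defence genes 2 fell and 0 rose, with a median of −0.31: PR5, a pathogenesis-related protein, by 2.47 ± 0.11 on the log2 scale, and EDS1, a regulator of resistance, by 0.88 ± 0.13. WRKY70 was at 5.00 on drought replicate 1 against 9.47, 8.14 and 9.18 on the other arrays. Of 11 ethylene genes 1 fell and 0 rose, with a median of 0.04. It was EFE, an enzyme of the last step of ethylene synthesis, which went from 9.03 and 8.87 to 6.30 and 6.53 (−2.53 ± 0.14, limma adjusted p = 0.0177). Limma called 0 of 22 jasmonate genes, with a median of 0.88 and 2 at an unadjusted p under 0.05, and the fit of 12 arrays called 3 rises and centring on reference genes 5. The jasmonate median turned to −1.13 without control replicate 2 and to −0.40 without drought replicate 2. For 11 clock genes limma called 0, with 0 at an unadjusted p under 0.05 and a median of 0.08, which ranged from −0.70 without control replicate 2 to 0.89 without drought replicate 1. Centring on reference genes called 3 clock genes as rises, which are not relied on. Among 17 flavonoid genes limma called 0, with a median of 0.86, 5 at an unadjusted p under 0.05 and PAP1, an anthocyanin regulator, at 3.08 ± 0.50 (adjusted p = 0.0542). Glucosinolate synthesis had 0 called of 17, a median of −0.96 and 4 at an unadjusted p under 0.05. The glucosinolate median was −0.36 without control replicate 1 and −0.39 without drought replicate 1. That of the flavonoid genes was 0.32 without control replicate 1, 0.56 without drought replicate 1 and 0.33 without drought replicate 2. In the fit of 12 arrays 3 flavonoid genes rose and 1 fell, and 5 glucosinolate genes fell.

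**Figure D4:**
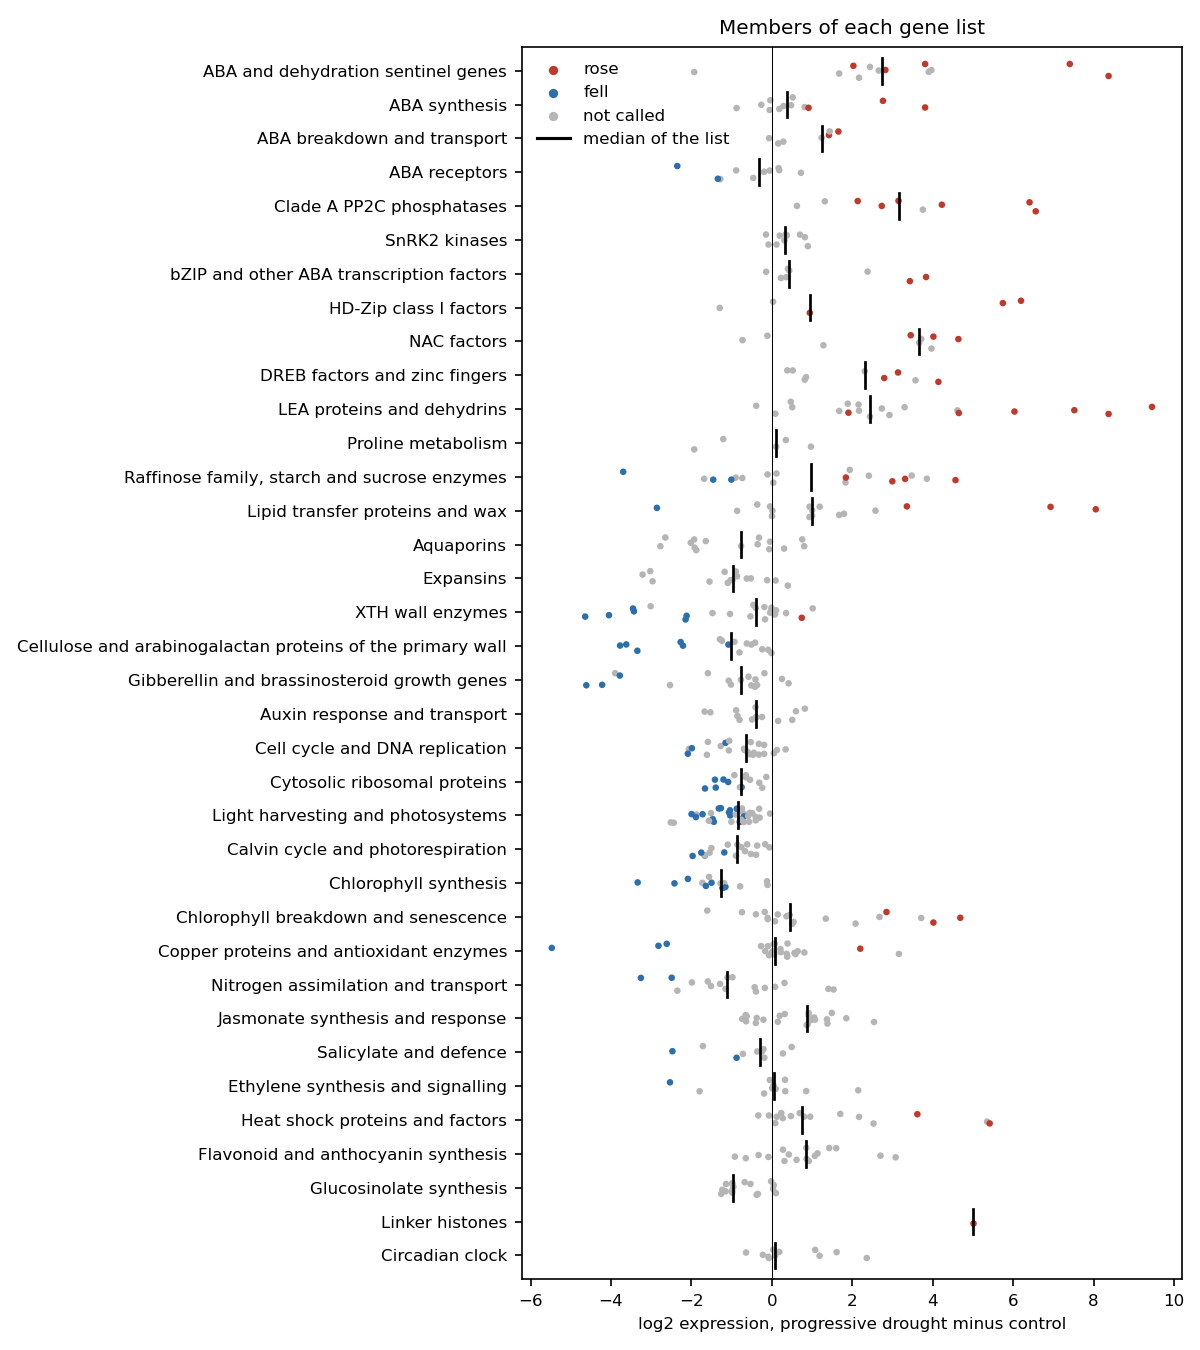
Log2 difference of progressive drought minus control (x axis) for the measured members of each gene list (y axis), 1 point per gene, coloured by call, with a bar at the list's median. The LEA list reaches from −0.39 to 9.45, and the 36 photosystem genes all lie below 0 with a median of −0.84.

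Markers of leaf cells and of other tissues were read beside these lists. Leaf mesophyll markers were bright, and 4 of 6 fell with a median of −1.03. With cyclic loess 3 fell and the median was −0.62, and with centring on reference genes 2 fell. Their mean level was 12.84 and 13.00 in the control and 11.81 and 11.55 in drought. They overlap with the photosynthesis lists. CA1, a carbonic anhydrase, fell by 2.48 ± 0.24 on the log2 scale. Of 13 vascular markers 1 rose, beside 2.74% of all probe sets. It was the xylem cellulose synthase IRX3 (0.76 ± 0.10, limma adjusted p = 0.0376). The mean level of the 13 was 5.93 and 6.10 in the control and 6.49 and 6.19 in drought. With centring on reference genes or with dim probe sets left out, 0 vascular markers rose. By any margin, 7 of the 13 were higher on both control replicate 2 and drought replicate 1 than on the other arrays. The part of vascular tissue in the results for wall genes was not tested. Limma called 0 of 12 guard cell markers (2 at an unadjusted p under 0.05) and 0 of 6 markers of epidermis and trichomes (1 at such a p). It also called 0 of 10 root markers (1), 0 of 13 markers of shoot apex and flower (0) and 0 of 12 seed markers (0). All root, flower and seed markers lay between 2.82 and 6.20 on the 4 arrays, so none of these tissues gave a bright marker. Of the 7 reference genes limma called 0, with 0 at an unadjusted p under 0.05 and a median of −0.11. Their mean was 9.09 and 9.38 in the control and 9.33 and 8.71 in drought, lowest on drought replicate 2. The ratio of 3′ to 5′ signal of the ubiquitin control, a sign of RNA quality, lay between −0.70 and −0.20 on the log2 scale, and the 25S ribosomal RNA probe was at 10.8 on drought replicate 1 against 8.88 to 9.53 on the other arrays.

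The study set progressive drought beside a moderate drought held at constant soil moisture, and the effect at wilting was tested against both of its samplings. The 3 samplings had been normalised as separate sets, so only differences from their own controls were compared. The effect at wilting differed from that on day 1 for 2488 probe sets, 11.6% of those tested, and from that on day 10 for 2370, or 11.0% (interaction contrasts in limma over 12 arrays, with a weight for each sampling). Without control replicate 2 of the progressive set these counts were 950 and 940, and without control replicate 1 they were 1458 and 1509. RAB18 differed by 3.27 ± 0.31 from its control on day 1, by −0.10 ± 0.53 on day 10 and by 8.37 ± 0.19 at wilting. The gap between wilting and day 1 was 5.10 ± 0.82 (limma adjusted p = 0.0045) and that between wilting and day 10 was 8.47 ± 0.85 (5.4e-04). NCED3 was at 0.59 ± 0.17 on day 1 and at 0.33 ± 0.26 on day 10, and its effect at wilting exceeded these by 3.22 ± 0.46 and 3.48 ± 0.47. LTI65, RD22 and ERD1 also exceeded both earlier effects by this test. ERD5 was below its control at all 3 samplings, at −1.55 ± 0.29, −1.34 ± 0.15 and −1.93 ± 0.50, and its effect at wilting was not shown to differ from the others (limma adjusted p = 0.795 and 0.728).

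**Figure D5:**
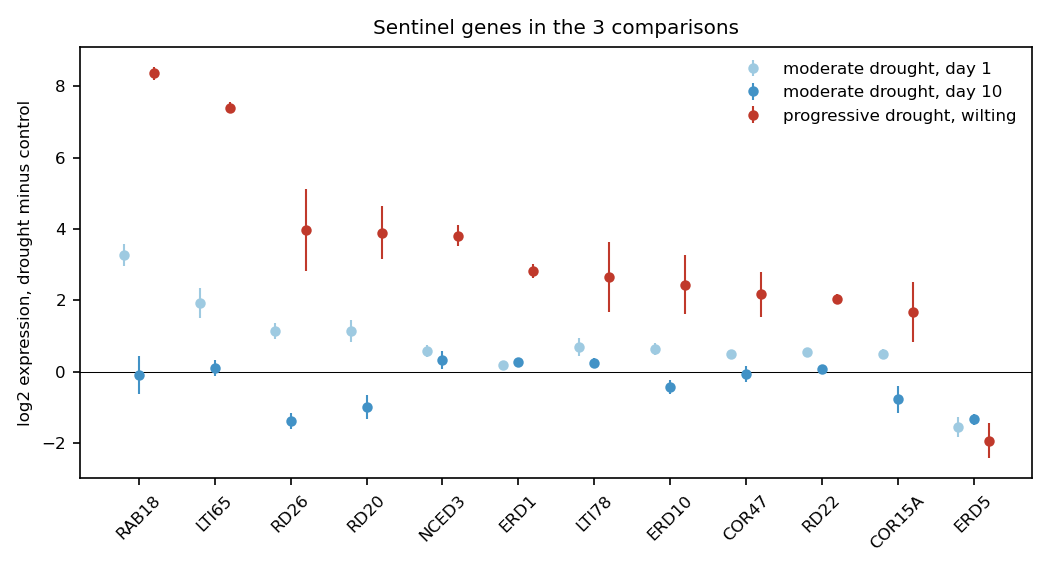
Log2 difference of drought minus control (y axis) for the 12 sentinel genes (x axis) on day 1 and day 10 of moderate drought and at wilting, each from its own 4 arrays, with bars of 1 SE. At wilting RAB18 and LTI65 stand at 8.37 and 7.41, against 3.27 and 1.92 on day 1 and −0.10 and 0.10 on day 10.

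On day 1 of moderate drought 187 probe sets were called in the fit of its own 4 arrays, 0.871% of those tested, and on day 10 limma called 0 (3038 at an unadjusted p under 0.05). The day 1 and wilting comparisons share no arrays. Of the 108 rises on day 1, 37 were also called as rises at wilting, which is 34.3% of the day 1 rises and 6.28% of those at wilting. Of the 79 falls, 27 were shared, or 34.2% of the day 1 falls and 2.74% of those at wilting. No probe set was called in opposite directions. Whether called or not, 100 of the 108 day 1 rises lay above 0 at wilting and 73 of the 79 falls lay below 0. Over all 21461 probe sets, 2.74% rose and 4.59% fell at wilting, with 10889 above 0 and 10572 below 0.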

How the data were processed

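Total RNA of young leaves, pooled from 5 plants per array, was hybridised to 12 ATH1 arrays after 3′ biotin labelling. The authors deposited log2 expression values per locus, made with RMA in the affy package per the submitters' processing notes; those notes state no version. RMA corrects background, normalises by quantiles and summarises probes, so equal distributions were imposed on the arrays and no detection calls were used. The deposited values were used as they stand.

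Groups came from the sample titles. Drought was compared with control over 4 arrays with limma 3.58.1 in R 4.3.3, with 2 residual and 1.76 prior degrees of freedom, at a Benjamini-Hochberg adjusted p of 0.05 over 21461 probe sets. The effects of the 3 samplings were compared by contrasts over 12 arrays, weighted 1.48 for day 1, 1.22 for day 10 and 0.554 for the progressive set. The number of arrays limits the precision. The fit over 4 arrays was tested on simulated data with independent noise on each array, without the crossed split seen here. The outcome of that test is not reported here. Tables and figures used Python 3.11.15, pandas 2.3.3 and matplotlib 3.10.9.

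The 44 lists held 666 entries: 13 were dropped because name and locus did not match in RefSeq, 52 were not on the array, and 601 were measured, for 586 loci. Of 21389 sense loci, 21164 were in the RefSeq table and 8982 had a symbol there. The members and lists were chosen with earlier results of these data known. The rule named all sentinels, the 15 largest called rises and falls with a symbol, and in each list up to 4 called members of largest change, up to 2 called against the main direction and up to 2 of the brightest not called. Not every gene the rule names is described, and genes described beyond it were chosen after their values were seen. Promoter sequences were not analysed here.

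Same-numbered drought and control arrays did not deviate together: their replicate differences correlated at 0.03 on day 1, 0.06 on day 10 and −0.49 in the progressive set, so the numbers were not taken as pairs. Alternatives were other sets of arrays, weights and priors, cyclic loess, centring on 7 reference genes or on array medians, a filter on dim probe sets, a replicate block and leaving out each array.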

Additional observations from a re-analysis of the deposited data

Results flagged for a closer look

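The effects below were set apart because the drought effect at wilting differed from that of moderate drought by a test of the difference itself, the interaction contrast in limma over 12 arrays. This held for 2488 probe sets against day 1, of which 1057 were higher and 1431 lower at wilting, and for 2370 against day 10, with 938 higher and 1432 lower. Among the sentinels, the difference from the day 1 effect was 5.49 for LTI65, 5.10 for RAB18, 3.22 for NCED3, 2.64 for ERD1 and 1.46 for RD22 on the log2 scale. Against the day 10 effect it was 8.47 for RAB18, 7.31 for LTI65, 3.48 for NCED3, 2.55 for ERD1 and 1.96 for RD22. A further 4 sentinels passed against day 10 only: RD26 at 5.36, RD20 at 4.89, ERD10 at 2.86 and COR47 at 2.23. None of these 4 was called in the comparison of progressive drought with its own control. The contrasts take the spread of each probe set from all 12 arrays and may understate that of the progressive set. The results for RD26, RD20, ERD10 and COR47 are therefore tentative. RD26 lay below its control on day 10, at −1.39, as did RD20 at −0.99, but neither was called there, where limma called 0 probe sets. Moderate and progressive drought also differed in age when water was withheld, and the time from then to wilting is not given. Severity, age and duration thus cannot be told apart.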

How the results depend on the processing

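Against 1575 calls on the 4 arrays (589 rises, 986 falls) and 111 among the loci of the gene lists, a shared spread over 12 arrays gave 5797 (2692 and 3105) and 282 listed, and weights by sampling 4295 (1959 and 2336) and 241 listed. Centring on reference genes gave 1032 rises and 659 falls, none of under 1 log2 unit, with the limit on that fit given in the results. The replicate block gave 0 calls, 0 rises, 0 falls and 0 listed, with 4189 probe sets at an unadjusted p under 0.05 in limma. A crossed block, chosen after seeing the data, gave 2426 calls, 973 rises and 173 listed. Leaving out 1 array gave 0 to 550 calls, 0 to 334 rises, 0 to 216 falls and 0 to 55 listed, 950 to 3291 calls against day 1 and 940 to 3140 against day 10. All leave-one-out fits leave a lone array that is assumed to vary like the other group, and fewer arrays leave fewer degrees of freedom; other causes were not tested. Trend and robust moderation (1642), cyclic loess (1657), median centring (1572) and the filter on dim probe sets (1832) stayed within 1.5 times of the main count. No named gene reversed its direction where called. Under the block 88 named genes kept their side of the threshold and 97 lost their call, with the same counts in 3 of the 4 fits on fewer arrays, the exception being that without drought replicate 2 (51 lost, 3 gained). Of 44 list medians, 22 moved with reference-gene centring, 4 with loess, 11 with dim probe sets left out and 11 to 13 without 1 array. Without dim probe sets, over fewer members, the median was −1.64 for aquaporins, 1.41 for the bZIP list, 1.84 for the sugar list and −0.55 for the proline list, where it had been above 0. Without 1 array the lowest median was 2.399 for NAC factors, 0.64 for the lipid transfer list and 0.19 for ABA synthesis, and the highest for the bZIP list was 0.80. In lists with a median below 0 it came as near to 0 as −0.48 for gibberellin and brassinosteroid genes, −0.60 for expansins, −0.71 for nitrogen, −0.23 for auxin, −0.26 for XTH and −0.10 for salicylate. The ethylene median ran from −0.09 to 0.17. Levels near background were not separable from it.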

Other observations

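Organelle transcripts were read apart from the nuclear lists. Of 72 plastid-encoded probe sets 1 fell, ATCG00810, from 10.85 and 11.10 in the control to 9.80 and 9.54 in drought (−1.30 ± 0.16, limma adjusted p = 0.0357), and the median over all 72 was −0.07, with members from −1.49 to 1.89. Limma called 0 of 50 mitochondrial probe sets (4 at an unadjusted p under 0.05), of which 40 lay above 0, with a median of 0.14. The fit of 12 arrays called 8 plastid falls and 5 mitochondrial rises. Of 72 antisense probe sets limma called 0 (8 at an unadjusted p under 0.05), with a median of 0.05 and 6 rises in the fit of 12 arrays. How well the labelling captures organelle RNA, which is mostly not polyadenylated, was not tested.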
